A study of Mus musculus with 14 samples.

Results

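Described here are 8 genes that mark the granule cells of the dentate gyrus: Prox1, Calb1, C1ql2, Dsp, Lct, Tdo2, Trpc6 and Stxbp6. They were chosen by name, as known markers of these cells, with earlier results of these data known, so counts over them are descriptions. Each matched exactly 1 of the 43346 genes in the count table. RNA was sequenced from frozen brain slabs that held hippocampus and cortex of 14 female mice aged 23 months, of the strain given as C57BL/6;SJL-Tg. The groups were 4 non-transgenic (NTG) mice with the wild type genotype on vehicle, 5 APP/PS1 mice on vehicle, and 5 APP/PS1 mice given CP2. APP/PS1 mice carry transgenes for familial Alzheimer's disease forms of the amyloid precursor protein and presenilin 1, with the genotype written as +/+, and the promoters of the transgenes are not given in the sources used here. CP2 is a tricyclic pyrone that inhibits mitochondrial complex I. It was given in the drinking water at 25 mg/kg per day from 9 months of age, so for 14 months, and vehicle was the same water with polyethylene glycol. The sample labels call the vehicle mice non-treated. CP2-treated NTG mice are not analysed here.

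Granule cells are the principal neurons of the dentate gyrus, the entry stage of the hippocampal circuit. They receive input from the entorhinal cortex and send their axons, the mossy fibres, to hilar mossy cells and to the pyramidal neurons of CA3. They are among the few neurons that are still added in adult rodents, and Prox1, a homeobox transcription factor, sets and keeps their identity. Calb1 encodes calbindin-D28k, a calcium buffer that mature granule cells hold in quantity and that Purkinje cells of the cerebellum hold as well. Changes in granule cells have been studied in Alzheimer's disease models because the perforant path that feeds them is affected early in the disease.

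Total counts ran from 70548781 to 106235625 per mouse, so that 1 count was worth 0.00923 to 0.0149 CPM, the count scaled to a fixed library size. Levels in CPM use the trimmed mean of M-values (TMM) factors over all 14 mice. Mouse App overlapped between groups, with 1334 to 1489 CPM in NTG mice, 1363 to 1497 CPM in APP/PS1 mice and 1417 to 1531 CPM in CP2-treated APP/PS1 mice, so this count of the mouse gene does not check the genotype labels. Microglial genes did differ, with 6 of 6 higher in APP/PS1 than in NTG mice at an adjusted p under 0.05. These are bulk samples, in which fewer granule cells, less RNA per granule cell and less dentate gyrus in the slab cannot be told apart.

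Vehicle-treated APP/PS1 mouse 16 and NTG mouse 7 stood apart in genes of other brain regions. In mouse 16 the 9 striatum genes of a marker list summed to 2158 CPM, against 169 to 314 CPM in the other 13 mice, and its 10 thalamus genes summed to 164 CPM, against 271 to 562 CPM. NTG mouse 7 held 81.0 CPM of Gabra6, the receptor subunit that marks cerebellar granule cells, and no other mouse exceeded 11.4 CPM, the level in mouse 18. Cbln3, another cerebellar granule cell gene, was at 87.5 CPM in mouse 7 and at most at 24.4 CPM elsewhere. The list of cerebellum genes was added after these values were seen. The part of these region markers in the results was not tested, and the results are given with and without mouse 16 and, where it changes them, mouse 7.

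RefSeq holds promoter windows on GRCm38.p6, the build of the counts, for 7 of the 8 genes, and for Calb1 there is no entry. The 250 bases before the RefSeq start of Prox1, C1ql2 and Lct are shown because these genes had the lowest levels in mouse 16 relative to the other APP/PS1 mice, and because these windows hold no annotated exon. The windows of C1ql2 and Lct abut the genes as counted, whereas the RefSeq start of the Prox1 window lies upstream of the counted gene, and another Prox1 window, with 118 exonic bases, is not shown. The windows of Tdo2 and Dsp lay within annotated exons, and none of their bases are shown. Each runs 5′ to 3′ on the strand of the gene, with capitals on matches to CANNTG, the E-box letters bound by basic helix-loop-helix factors, and to TATAAA, on either strand.
Prox1, chr1:190170828-190171077, minus strand: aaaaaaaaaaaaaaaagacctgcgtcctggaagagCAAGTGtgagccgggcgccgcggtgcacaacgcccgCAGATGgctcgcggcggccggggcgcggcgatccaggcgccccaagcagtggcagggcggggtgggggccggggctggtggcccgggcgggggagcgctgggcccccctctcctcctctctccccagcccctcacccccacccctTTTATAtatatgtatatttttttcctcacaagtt
C1ql2, chr1:120340332-120340581, plus strand: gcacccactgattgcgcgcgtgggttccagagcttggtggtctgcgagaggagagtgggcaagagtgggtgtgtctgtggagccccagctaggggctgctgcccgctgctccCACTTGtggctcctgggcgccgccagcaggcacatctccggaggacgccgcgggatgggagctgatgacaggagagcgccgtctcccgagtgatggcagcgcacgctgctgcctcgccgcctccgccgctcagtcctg
Lct, chr1:128328319-128328568, minus strand: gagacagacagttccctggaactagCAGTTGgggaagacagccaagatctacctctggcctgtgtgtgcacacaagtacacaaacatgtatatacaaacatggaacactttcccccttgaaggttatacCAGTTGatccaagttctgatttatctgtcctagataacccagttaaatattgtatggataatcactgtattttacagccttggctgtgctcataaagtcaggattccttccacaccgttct
The Prox1 window held 2 E-box matches and 1 TATAAA match, whose first base lay 34 bases before the RefSeq start of this window. C1ql2 had 1 E-box match, 138 bases before the start, and Lct had 2, at 225 and 121 bases before it. An E-box match occurred in 66.2% of the 32851 windows of this length and a TATAAA match in 12.4%, so the E-box is common among promoters at large. A match is a description of letters and not evidence of binding.

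All 8 genes are protein coding, and the coordinates are on mm10 as deposited. Prox1 (ENSMUSG00000010175) lies at chr1:190118035-190170714, C1ql2 (ENSMUSG00000036907) at chr1:120340582-120343174 and Lct (ENSMUSG00000026354) at chr1:128284756-128328318. Tdo2 (ENSMUSG00000028011) is at chr3:81957090-81976202, Calb1 (ENSMUSG00000028222) at chr4:15881264-15908064 and Trpc6 (ENSMUSG00000031997) at chr9:8544196-8680565. Stxbp6 (ENSMUSG00000046314) is at chr12:44852488-45074493 and Dsp (ENSMUSG00000054889) at chr13:38151328-38198577. The library kit does not keep strand, and the count assigned a read to every gene it overlapped. An antisense transcript, Prox1os, shares 133 exonic bases with Prox1 and Gm10129 shares 499 with Dsp, so reads there cannot be told apart, and the other 6 genes share none with another gene.

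Per kilobase, in the RPKM values of the authors, the genes spanned a wide range of levels in NTG mice. Calb1 was the most abundant at 21.8 ± 6.41 RPKM (SD, n = 4), followed by Stxbp6 at 15.6 ± 1.58 RPKM and C1ql2 at 12.6 ± 2.65 RPKM. Neighbours among these did not separate: the NTG ranges of Calb1 and Stxbp6 overlapped, as did those of Stxbp6 and C1ql2. Prox1 at 5.18 ± 0.865 RPKM and Trpc6 at 2.86 ± 0.157 RPKM (SD, n = 4) each stood clear of their neighbours. Dsp at 1.24 ± 0.340 RPKM and Lct at 1.19 ± 0.377 RPKM overlapped, and Tdo2 was the lowest at 0.621 ± 0.131 RPKM. Tdo2 rested on 67 counts in mouse 16, its lowest library, and on 340 in mouse 7, its highest.

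Was the granule cell programme lower in APP/PS1 than in NTG mice? The fitted difference was below 0 for 8 of the 8 genes. Tdo2 was the 1 gene that fell past an adjusted p of 0.05, to a fitted 0.444 of its NTG level, and without mouse 16 Dsp and Lct fell as well. By this rule 1 of 8 genes was called lower, against 1.34% of the 16417 genes tested. Without mouse 16 it was 3 of 8, against 2.30% of all genes, and without mice 7 and 16, a setting chosen after seeing the data, it was 4 of 8, with Prox1 added, against 3.11%. The median log2 difference of the 8 genes was -0.66, and -0.43 without mouse 16, where the medians over all genes tested were -0.0042 and -0.0077. At an unadjusted p under 0.05, 5 of 8 were lower (8.05% of all genes), and 6 of 8 without mouse 16 (9.43%). The groups did not overlap for 4 genes, Prox1, Dsp, Lct and Tdo2 (4.25% of all genes were lower without overlap), and for the same 4 without mouse 16 (5.43%). Markers of the thalamus had the same sign: 10 of 10 had a fitted difference below 0, with a median of -0.49, and -0.29 without mouse 16, although none was called in either fit. Without mice 7 and 16, 1 of these 10 markers was called, lower. Their sum was 326 to 562 CPM in NTG mice and 164 to 420 CPM in APP/PS1 mice, or 271 to 420 CPM without mouse 16. Their part in the result was not tested.

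**Figure D1:**
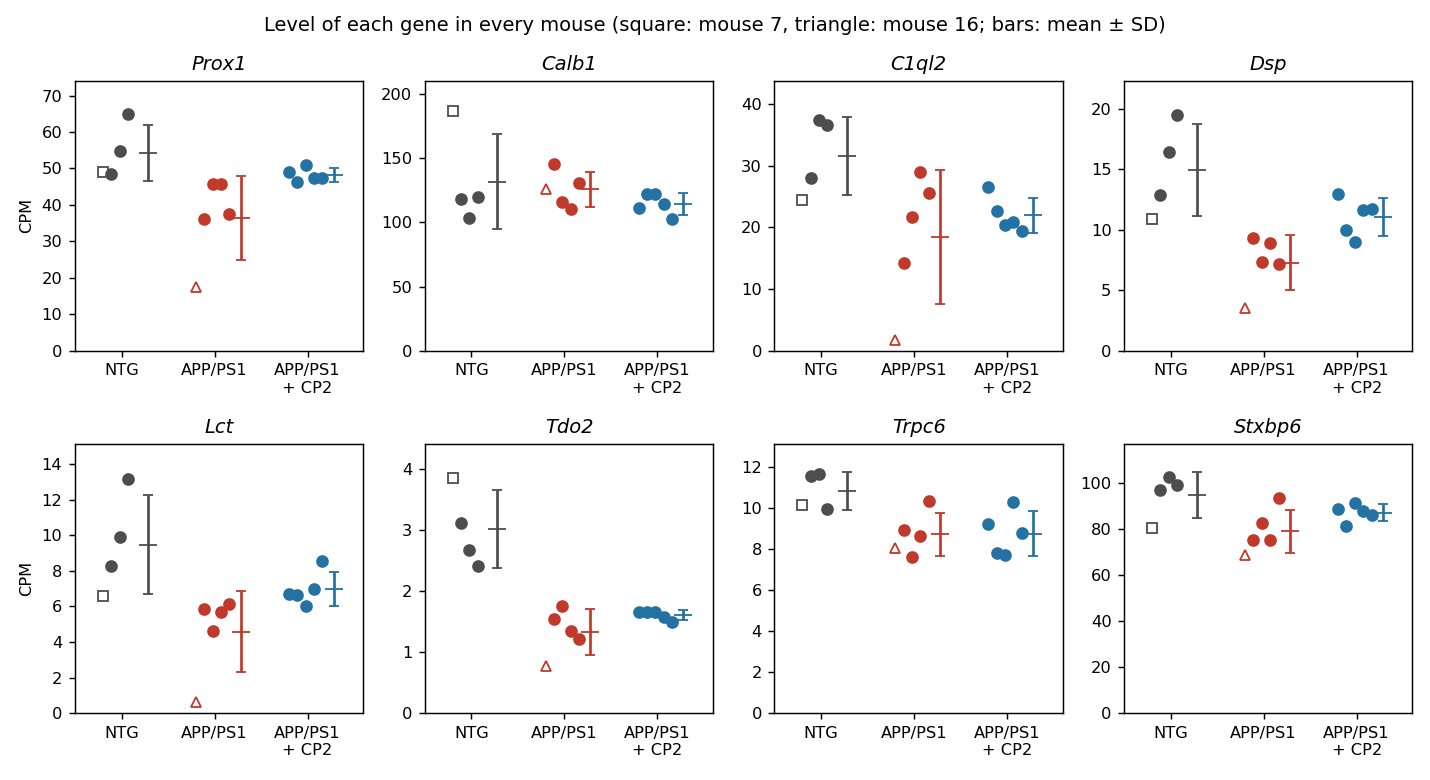
Level of each of the 8 genes in CPM (vertical axes, from 0) in every mouse, by group (horizontal axes); the square is NTG mouse 7, the triangle APP/PS1 mouse 16, and the bars give the mean ± SD of 4, 5 and 5 mice. Mouse 16 is the lowest of the 14 mice for 6 of the 8 genes, and Tdo2 separates NTG mice from all 10 APP/PS1 mice.

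Among the enzymes, Tdo2 encodes tryptophan 2,3-dioxygenase, which catalyses the first step of the kynurenine pathway of tryptophan breakdown. It was at 3.86, 3.12, 2.68 and 2.41 CPM in NTG mice 7, 8, 9 and 10. In APP/PS1 mice 16 to 20 it was at 0.771, 1.55, 1.76, 1.35 and 1.22 CPM, and in CP2-treated mice 21 to 25 at 1.67, 1.66, 1.67, 1.58 and 1.49 CPM. Every NTG mouse lay above every APP/PS1 mouse, treated or not, and the 5 treated mice sat close together inside the range of the untreated ones. The log2 difference from NTG mice was -1.17 (SE 0.23, edgeR adjusted p = 0.0144) in APP/PS1 mice and -0.89 (SE 0.14, adjusted p = 0.00345) in CP2-treated APP/PS1 mice. Both comparisons use the same 4 NTG mice. Without mouse 16 the difference of the vehicle groups was -1.03 (SE 0.18, adjusted p = 0.00547). Between treated and untreated APP/PS1 mice it was 0.28, with a 95% interval from -0.12 to 0.68 (adjusted p = 0.775). Of the other genes listed for tryptophan and kynurenine metabolism, which include Tph2, 5 of 12 in the table were expressed enough to be tested. None of these 5 was called, and the smallest p among them belonged to Ccbl1, a kynurenine aminotransferase gene, at -0.21 (adjusted p = 0.153).

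Lct encodes lactase, the disaccharidase of the intestinal brush border, and in the brain serves as a marker of granule cells. In NTG mice 7 to 10 it was at 6.58, 8.27, 9.88 and 13.1 CPM. APP/PS1 mice 16 to 20 were at 0.656, 5.84, 4.65, 5.69 and 6.12 CPM, and CP2-treated mice 21 to 25 at 6.73, 6.62, 6.05, 6.95 and 8.56 CPM. The NTG and APP/PS1 groups did not overlap, with mouse 7 and mouse 20 nearest to each other, and mouse 16 lay far under the rest at 57 counts. The log2 difference of APP/PS1 from NTG mice was -1.03 (SE 0.48, adjusted p = 0.287) with mouse 16, and -0.76 (SE 0.19, adjusted p = 0.0372) without it. Leaving out the lowest mouse made the difference smaller and its error smaller still. CP2-treated APP/PS1 mice differed from NTG mice by -0.43 (adjusted p = 0.201).

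Among genes of adhesion and secreted proteins, Dsp encodes desmoplakin, which ties desmosomes to intermediate filaments and is a known marker of dentate granule cells. Its level was 10.9, 12.9, 16.4 and 19.5 CPM in NTG mice 7 to 10. In APP/PS1 mice 16 to 20 it was 3.57, 9.35, 7.31, 8.92 and 7.19 CPM, and in CP2-treated mice 21 to 25 it was 12.99, 10.02, 8.98, 11.6 and 11.7 CPM. All APP/PS1 mice were under all NTG mice, and the treated mice fell between and overlapped both groups. The difference of APP/PS1 from NTG mice was -1.03 (SE 0.26, adjusted p = 0.0501), just outside the threshold, and -0.86 (SE 0.17, adjusted p = 0.0126) without mouse 16. It passed with DESeq2 (adjusted p = 0.00137), with limma-voom (adjusted p = 0.0118) and under the 4 other settings of edgeR tried on all mice. With any 1 of mice 8, 9, 10, 17, 18, 19 or 20 left out, Dsp did not pass with edgeR (adjusted p from 0.0535 to 0.144). Without mouse 7 it passed (edgeR adjusted p = 0.0489). Of the 13 other desmosome and plakin genes counted, 7 were tested, and Ppl, which encodes periplakin, rose by 0.92 (adjusted p = 0.00965), the opposite direction to Dsp, while the remaining 6 were not called.

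C1ql2 encodes a secreted C1q-like protein that granule cells place at mossy fibre synapses. NTG mice 7 to 10 had 24.5, 28.02, 37.3 and 36.5 CPM. APP/PS1 mice 16 to 20 had 1.68, 14.1, 21.6, 28.9 and 25.6 CPM, and CP2-treated mice 21 to 25 had 26.5, 22.6, 20.4, 20.8 and 19.4 CPM. The 3 groups overlapped, and the spread among APP/PS1 mice was the widest of the 3, at 59.0% of the mean with mouse 16 and 28.2% without it. The log2 difference of APP/PS1 from NTG mice was -0.77 (SE 0.56, adjusted p = 0.528), and -0.47 (SE 0.21, adjusted p = 0.229) without mouse 16. In CP2-treated APP/PS1 mice, whose spread was 12.7% of the mean, a difference of -0.51 (SE 0.13, adjusted p = 0.0428) from NTG mice passed the threshold. This call was lost when any 1 of mice 8, 9, 10, 22, 23, 24 or 25 was left out (adjusted p from 0.0595 to 0.127) and in 1 fit of all 3 groups (adjusted p = 0.65). C1ql2 therefore fell past the threshold in the treated mice and not in the untreated ones, but the 2 groups of APP/PS1 mice were not shown to differ: treated minus untreated was 0.25, with a 95% interval from -0.85 to 1.35, and -0.04 without mouse 16. Of the related C1q-like genes and their partners at these synapses, 6 of 7 in the table were tested and none was called, the smallest p being that of Grik4, a kainate receptor gene, at -0.22 (adjusted p = 0.344).

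The transcription factor gene Prox1 stood at 49.1, 48.4, 54.8 and 64.9 CPM in NTG mice 7 to 10. The APP/PS1 mice 16 to 20 were at 17.5, 36.1, 45.7, 45.7 and 37.6 CPM, and the CP2-treated mice 21 to 25 at 49.2, 46.3, 50.9, 47.4 and 47.3 CPM. All 5 vehicle-treated APP/PS1 mice thus lay under every mouse of the other groups, with a narrow gap to the lowest treated mouse at 46.3 CPM. It was lower in APP/PS1 than in NTG mice by a log2 difference of -0.56 (SE 0.24), which did not pass (adjusted p = 0.238). Without mouse 16 the difference was -0.39 (SE 0.11, adjusted p = 0.0662), and without mice 7 and 16 it was -0.43 (SE 0.12, adjusted p = 0.0472).

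Of the genes for calcium handling and exocytosis, Calb1 was at 187, 118, 104 and 120 CPM in NTG mice 7 to 10. APP/PS1 mice 16 to 20 had 126, 146, 116, 111 and 131 CPM, and CP2-treated mice 21 to 25 had 111, 122, 122, 114 and 102 CPM. The groups overlapped throughout, and the highest value was that of mouse 7, the library with the high cerebellar genes. APP/PS1 minus NTG was -0.06 (95% interval -0.41 to 0.29, adjusted p = 0.878), and 0.15 (-0.05 to 0.36) without mouse 7, so that the sign rested on that library. Unlike the other genes, Calb1 in mouse 16 equalled the mean of the other 4 APP/PS1 mice at 100.2% of it. Mouse 16 is the library with the high striatum genes, 2158 CPM in sum, and the part of other regions in its Calb1 was not tested. Among 7 tested genes of other calcium-binding proteins none was called, and Vsnl1, which encodes a visinin-like calcium sensor, had the smallest p at -0.19 (adjusted p = 0.175).

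Trpc6 encodes a cation channel opened by diacylglycerol, and ranged from 9.95 to 11.7 CPM in NTG mice, 7.62 to 10.4 CPM in APP/PS1 mice and 7.71 to 10.3 CPM in CP2-treated mice. Its differences from NTG mice were -0.30 (SE 0.10, adjusted p = 0.133) in APP/PS1 mice and -0.29 (SE 0.10, adjusted p = 0.125) in treated mice. Treated and untreated APP/PS1 mice had nearly the same mean, 8.78 ± 1.08 and 8.75 ± 1.05 CPM (SD, n = 5 each), with a 95% interval of the log2 difference from -0.23 to 0.24. Among the other 6 Trpc channel genes none was called, and Trpc5 had the smallest p at -0.30 (adjusted p = 0.18). Stxbp6 encodes amisyn, which binds syntaxin in SNARE complexes, and spanned 80.4 to 102 CPM in NTG mice, 68.6 to 93.5 CPM in APP/PS1 mice and 81.3 to 91.3 CPM in treated mice. It differed from NTG mice by -0.25 (SE 0.10, adjusted p = 0.186) in APP/PS1 mice. None of 10 other tested genes of syntaxin-binding and SNARE proteins was called, although Stxbp5l, for the tomosyn-2 protein, came near at -0.29 (adjusted p = 0.0543) and passed without mouse 16 at -0.33 (adjusted p = 0.0229).

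**Figure D2:**
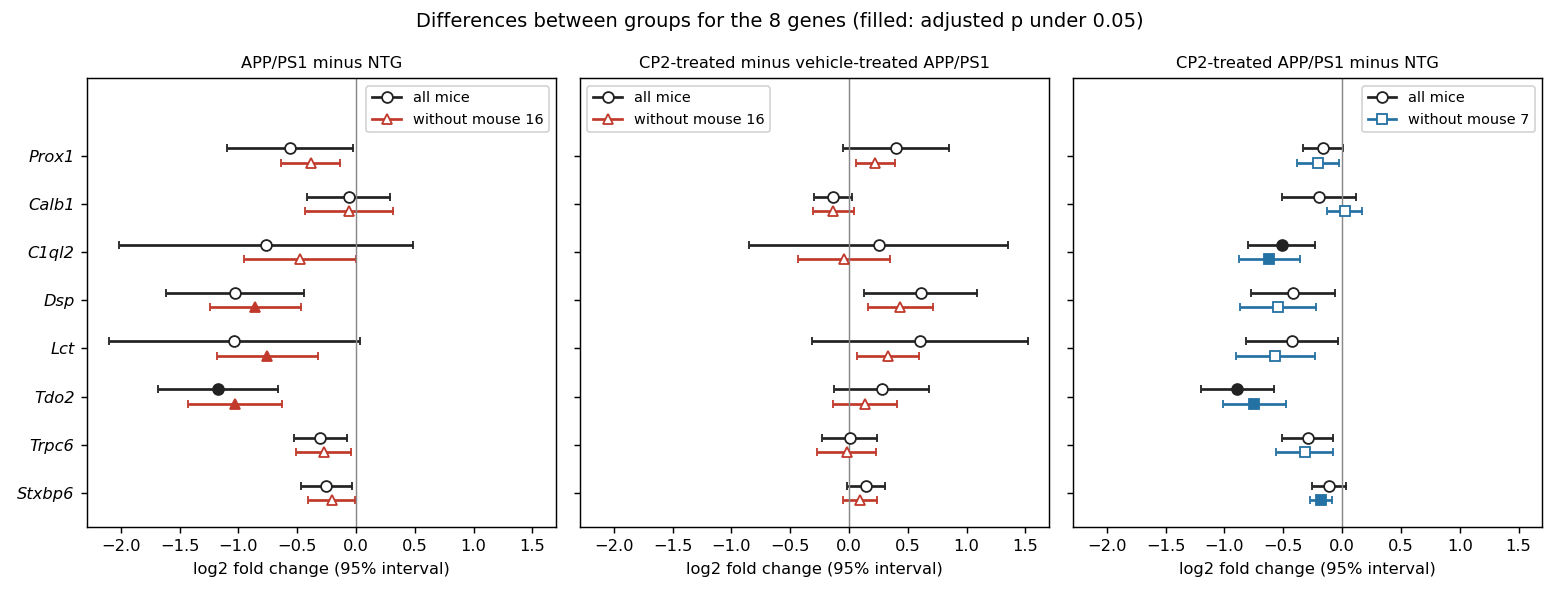
Log2 fold changes with 95% intervals (horizontal axes) of the 8 genes (rows) in the 3 comparisons, from edgeR. Circles use all mice, triangles leave out mouse 16 and squares leave out mouse 7; filled symbols have an adjusted p under 0.05. The triangles lie nearer to 0 with shorter intervals than the circles for Dsp and Lct, and no symbol of the middle panel is filled.

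Did CP2 move these genes in APP/PS1 mice? None of the 8 passed an adjusted p of 0.05 with edgeR, in a comparison where 1 gene of 16407 did (0.00609%, a gene that was lower). The signs were 7 higher and 1 lower, and the median of the 8 log2 differences was 0.26, against -0.0060 over all genes tested. At an unadjusted p under 0.05 edgeR counted 1 gene, Dsp, at 0.61 (SE 0.22, adjusted p = 0.744), where 2.88% of all genes were higher by this rule with edgeR. DESeq2 counted 2 genes and limma-voom 2, in either direction, and their shares over all genes are not given here. Prox1 was the 1 gene whose groups did not overlap (0.549% of all genes were higher without overlap), at 0.40 (SE 0.20, adjusted p = 0.749).

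Without mouse 16 the treatment differences of Prox1, C1ql2, Dsp, Lct, Tdo2 and Stxbp6 were smaller in size and had smaller errors, while the errors of Calb1 (0.074 to 0.080) and Trpc6 (0.11 in either fit) were not reduced. The median of the 8 genes fell to 0.11 and the signs were 5 higher and 3 lower. At an unadjusted p under 0.05, 3 genes were higher (4.25% of all genes): Dsp at 0.44 (SE 0.12), Lct at 0.33 (SE 0.12) and Prox1 at 0.22 (SE 0.07), with adjusted p = 0.417, 0.485 and 0.474. Prox1 still did not overlap (1.37% of all genes). The 10 thalamus markers were all higher by the fitted difference in treated mice, with a median of 0.58, and 0.40 without mouse 16, where 5 of them had an unadjusted p under 0.05 and none was called. Their sum was 339 to 541 CPM in the treated mice, and their part in the differences of the 8 genes was not tested. Mouse 16 belongs to the vehicle group that the treatment and genotype comparisons share, so low values there enter the 2 comparisons with opposite signs.

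Compared with NTG mice, CP2-treated APP/PS1 mice had lower Tdo2 and C1ql2, the latter call being the one lost on leaving out any of 7 mice and in the fit of all 3 groups. These were the 2 of 8 genes called lower, against 1.46% of the 16416 genes tested, and the fitted difference of all 8 was below 0, with a median of -0.36 against -0.0015 over all genes. At an unadjusted p under 0.05, 5 of the 8 were lower (8.59% of all genes), with Dsp at -0.42 (adjusted p = 0.172), Lct at -0.43 and Trpc6 at -0.29 beside the 2. Only Tdo2 did not overlap between the groups (3.45% of all genes). Without NTG mouse 7 the called genes were 3, with Stxbp6 added at -0.18 (adjusted p = 0.0371), against 1.86% of all genes, and Calb1 moved from -0.19 to 0.02.

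The low values of mouse 16 were unequal among the genes. C1ql2 was at 7.44% of the mean of the other 4 APP/PS1 mice, which is 13.4-fold lower, and Lct at 11.8%, or 8.50-fold lower. Prox1 was at 42.5%, Dsp at 43.6% and Tdo2 at 52.5%. By contrast Stxbp6 was at 84.2% and Trpc6 at 90.7%, so the genes of this set did not fall by a common factor. The 10 other granule cell genes were likewise uneven: mouse 16 was the lowest of the 14 mice for 6 of them and the highest for 2, Dock10 at 84.9 CPM and Gabrd at 67.7 CPM, where no other mouse exceeded 38.2 CPM of Gabrd. Their sum of 613 CPM, against 603 to 742 CPM in the other 13 mice, therefore hides opposite values. Genes of the CA fields went both ways as well. The 6 CA1 genes summed to 550 CPM, inside the range of the rest, with Wfs1 at 231 CPM (at most 147 CPM elsewhere) and Fibcd1 at 14.9 CPM (at least 25.7 CPM elsewhere). The 6 CA2 genes summed to 375 CPM, against 235 to 324 CPM, of which Pcp4 made up 219 CPM, against 89.6 to 165 CPM elsewhere, and mouse 16 was the lowest for 2 of the 6. Its CA3 genes at 132 CPM lay near the lowest value of the others, 131 CPM.

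**Figure D3:**
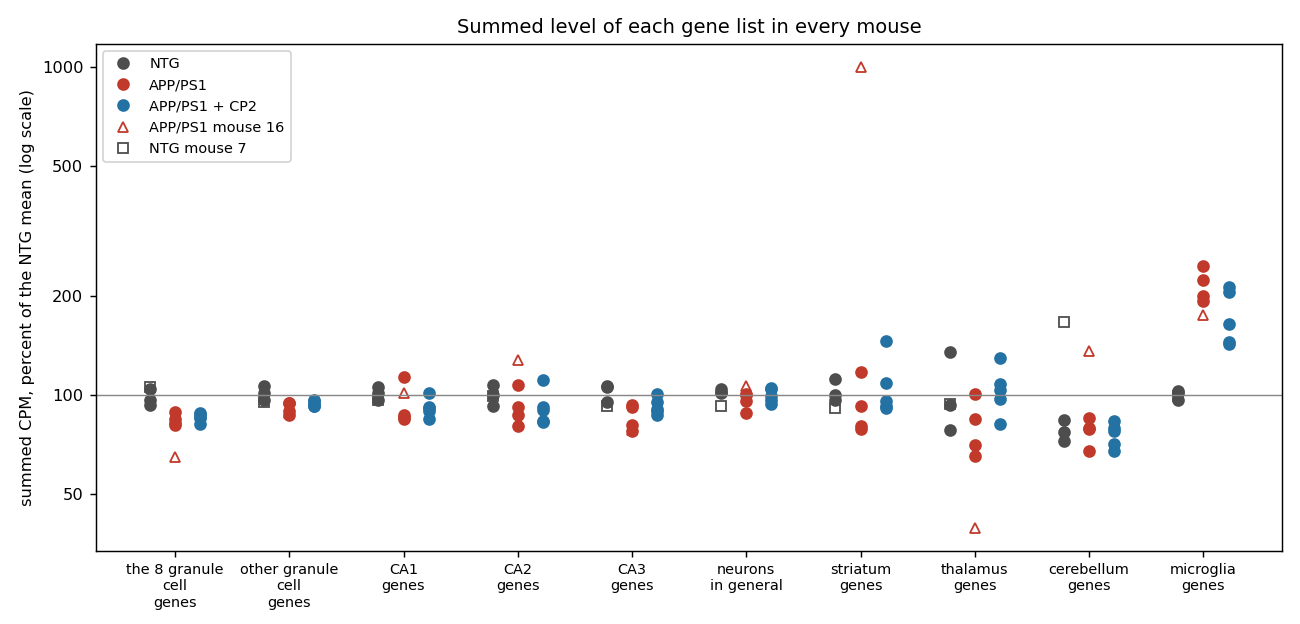
Summed CPM of 10 gene lists in every mouse, as percent of the NTG mean of the list (vertical axis, log scale), by list (horizontal axis) and group (colour). Mouse 16, the triangle, is at 64.7% for the 8 granule cell genes and at 1002% for striatum genes, and NTG mouse 7, the square, is at 167% for cerebellum genes. Itpr1 alone makes up 754 of the 1215 CPM of the cerebellum sum in mouse 7 and 974 of the 991 CPM in mouse 16. APP/PS1 mouse 18, at 79.2% for this list, has 11.4 CPM of Gabra6, against 0.150 CPM in mouse 16.

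To set the genes against markers of the CA fields, each log2 level was taken relative to other genes of the same mouse. The reference was the mean log2 level of the CA1, CA2 and CA3 genes. Groups were compared by an exact two-sided permutation test over mice. The slabs held cortex as well, and in mouse 16 these CA genes went both ways, as given above. The reference is therefore not a measure of hippocampal neurons alone. Relative to CA genes, Dsp was lower in APP/PS1 than in NTG mice by 0.87 on the log2 scale (exact p = 0.00794, the smallest that 4 against 5 mice allow), Tdo2 by 0.99 (exact p = 0.0159) and Lct by 1.12 (exact p = 0.0397). C1ql2 (exact p = 0.222), Prox1 (exact p = 0.127), Trpc6 (exact p = 0.294) and Stxbp6 (exact p = 0.516) did not pass, and Calb1 was 0.17 higher (exact p = 0.421). Without mouse 16, a setting added after seeing the data, the same 3 genes, Dsp, Tdo2 and Lct, had the smallest p that 4 against 4 mice allow (exact p = 0.0286 each). These p values are not adjusted for the 8 genes. Between treated and untreated mice Dsp was 0.55 higher relative to CA genes (exact p = 0.0397) and 0.35 higher without mouse 16 (exact p = 0.0714). Scaling to CA genes or to neurons in general gave 32 treatment results for the 8 genes, most of which are not given here. Where the sign was kept, 4 of these had an exact p under 0.05 though the unadjusted edgeR p had not. Conversely 2 no longer passed, and 6 of the 32 changed sign.

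Other lists of dentate gyrus genes held few calls. Of 10 further granule cell genes, all tested, none was called in APP/PS1 against NTG mice, with a median of -0.10. Their smallest p values were those of Plk5 at -0.37 (adjusted p = 0.177) and Ahcyl2 at -0.16 (adjusted p = 0.245). Without mouse 16 none of the 10 was called, and without mice 7 and 16 it was 1 of 10, lower (3.11% of all genes). Of 8 genes of immature granule cells 5 were tested and none was called. Among 4 hilar mossy cell genes Csf2rb2 rose by 1.47 (SE 0.23, adjusted p = 0.00402), from 1.34 to 3.68 CPM, where 4.34% of all genes were called higher. Csf2rb2 encodes a cytokine receptor subunit that myeloid cells also express. Of 10 genes of neuronal activity and of mossy fibre peptides 1 was called: Bdnf, the neurotrophin that granule cells load into mossy fibres, fell by 0.62 on the log2 scale (adjusted p = 0.0331), against 1.34% of all genes called lower. The sum of these 10 genes in mouse 16 was 222% of the NTG mean. Penk made up 462 of its 1213 CPM, against at most 83.3 CPM of Penk elsewhere. Without mouse 16 the calls were 1 of 10, lower (2.30% of all genes), and without mouse 7 also 1 of 10, lower (1.14%). Without mice 7 and 16, a setting chosen after seeing the data, the calls were 4 of 10. These were Bdnf, Fos, Arc and Npas4, all lower (3.11% of all genes). With all mice, Fos, Arc and Npas4 were not called. For these genes mouse 7 was the lowest NTG mouse and mouse 16 the highest vehicle-treated APP/PS1 mouse. Leaving out mice 7 and 16 therefore widened these differences. Arc was at 50.6 CPM in mouse 7, against 79.1 to 222 CPM in other NTG mice. It was at 204 CPM in mouse 16, against 23.8 to 67.3 CPM in the rest of its group. For Bdnf mouse 16 was instead the lowest of its group.

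Across mice, with each group centred on its mean, Prox1, C1ql2, Dsp and Lct varied together, less closely once mouse 16 was left out. Over 14 mice Pearson's r of log2 CPM was 0.95 between Prox1 and C1ql2, 0.94 between C1ql2 and Lct and 0.90 between Dsp and Lct. Over the other 13 mice these were 0.61, 0.34 and 0.80, and without mouse 7 as well 0.55, 0.12 and 0.68. Over the 13 mice Tdo2 ran against the rest: its r with Lct was -0.89 and with the mean of the other 7 genes -0.88. NTG mouse 10 had the highest Prox1, Dsp and Lct of the 14 mice and the lowest Tdo2 of its group, while mouse 7 had the highest Tdo2. Without mouse 7 as well, the r of Tdo2 with the mean of the other 7 was -0.81. For Calb1 this r was -0.23 over 14 mice, -0.77 over 13 and -0.46 without mouse 7 as well, so that its size rested in part on mouse 7. These coefficients describe 12 to 14 libraries of 3 groups and share depth and dissection with each gene.

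**Figure D4:**
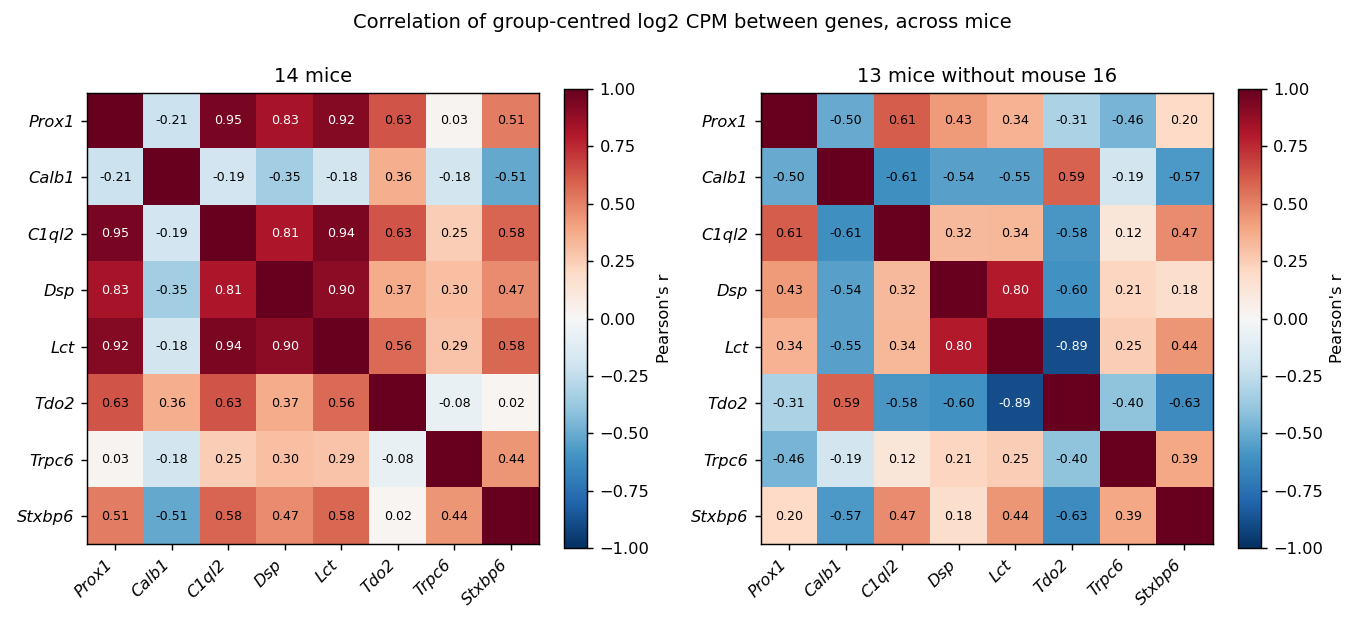
Pearson's r of group-centred log2 CPM between each pair of the 8 genes (rows and columns; colour scale from -1 to 1), over 14 mice on the left and over 13 mice without mouse 16 on the right. Prox1, C1ql2, Dsp and Lct are all above 0.80 with each other on the left and between 0.32 and 0.80 on the right, where Tdo2 is negative with every gene but Calb1.

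The genes most like the 8 were ranked by the r of their group-centred log2 CPM with the mean of the standardised values of the 8, among 16513 genes. Over 14 mice the 10 highest had r from 0.990 to 0.963 and included Slc9a4, Sertm1, Il1rap, Krt2, Rnf182, Nrp1, Shisa6, Pcdh19 and Pcdh20. Without mouse 16 they were Slx4ip, Tbc1d10b, St3gal3, Klhl18, Ago2, Unc5a, Sertm1, Mapt, Acd and Prrt1, with r from 0.927 to 0.871. Sertm1 was the 1 gene in the 2 sets of 10. Nothing on shared function or control follows from these rankings.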

How the data were processed

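RNA from frozen brain slabs of 14 mice had been sequenced from TruSeq v2 libraries, which do not keep strand. By the paper's methods and the submitters' processing notes, the authors aligned reads to mm10 with TopHat and obtained gene counts on Ensembl models with featureCounts of the Subread package, where a read falling on several genes was given to each. The raw counts as deposited were used in every test, and the RPKM values computed by the authors only to compare levels between genes. No column of per-sample values was left unused (0).

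The tools were edgeR 4.0.16, DESeq2 1.42.0 and limma 3.58.1 under R 4.3.3, with figures from matplotlib 3.10.9 under Python 3.11.15. The 2 groups of a comparison made up its fit. TMM factors and the quasi-likelihood test of edgeR were used in place of the DESeq2 test of the study, with Benjamini-Hochberg adjustment over all genes tested. The filter was that of the study, a robust CPM above 1 throughout 1 of the groups or more. Standard errors follow from the test statistic, and log2 CPM used a prior count of 2. None of 26 pairs of mice within groups agreed within sampling noise (lowest chi-square per degree of freedom 9.87). The procedure was tested on simulated data.

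The 8 genes and the other gene lists were chosen with earlier results of these data known, so counts over them are descriptions. Named genes were the 8, those of other lists with an adjusted p under 0.05 in the genotype or treatment comparison, or else at most 2 of the smallest p, and the 10 most alike, of which 1 is not reported here. Gabra6, Cbln3 and the App check were chosen after their values were seen. Replicates are separate libraries by their labels, and p values measure the spread between them. Alternatives were DESeq2, RLE factors, 2 other filters, 1 fit of all 3 groups, limma-voom with quality weights, each mouse left out, and scaling to CA genes or to neurons in general.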

Additional observations from a re-analysis of the deposited data

Results flagged for a closer look

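Lct in APP/PS1 mouse 16 was the 1 value set apart, at 0.656 CPM (57 counts), where the other 4 mice of its group had 4.65 to 6.12 CPM. The gap to the nearest mouse was 0.731 of the range of the group, past Dixon's 95% critical value for 5 samples. Of the 24 sets tested, 8 genes in 3 groups, chance flags about 1 in 20, and 1 was flagged. The same mouse had the striatum and thalamus marker values given in the report, and their part in this value was not tested.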

How the results depend on the processing

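The number of the 8 genes called in APP/PS1 against NTG mice, 1, became 2 with DESeq2, RLE factors, no filter other than 1 count, a minimum of 10 counts in every mouse, 1 fit of all 3 groups and limma-voom with quality weights, where Dsp joined Tdo2. It was 4 without mice 7 and 16, and 1 to 3 with each mouse left out. Over all genes the calls numbered 932 with edgeR, 1667 with DESeq2, 1563 with limma-voom and 1474 without mouse 16. Between the treated and the vehicle APP/PS1 mice the count was 0 under every alternative (0 to 0 with each mouse left out). For CP2-treated APP/PS1 against NTG mice it was 2, and 1 in 1 fit of all 3 groups, where C1ql2 was lost with the spread of the vehicle-treated mice pooled in, and 1 to 3 with each mouse left out. Tdo2 was called in the genotype and CP2-treated against NTG comparisons under every fit run. Signs turned for 3 genes, none of which was called in the comparison concerned. For Calb1, APP/PS1 minus NTG was 0.065 with limma-voom, 0.15 without mice 7 and 16, 0.17 scaled to CA genes and, without mouse 16, 0.13 scaled to CA genes and 0.022 scaled to neurons. It ran from -0.16 to 0.15 with each mouse left out, and from -0.30 to 0.023 when treated APP/PS1 were set against NTG mice. For the treatment, C1ql2 ran from -0.042 to 0.48 with each mouse left out, and without mouse 16 was -0.084 scaled to CA genes and -0.040 scaled to neurons. Trpc6 ran from -0.059 to 0.077, and was -0.11 scaled to CA genes, -0.0056 to neurons and, without mouse 16, -0.10 and -0.059. The causes of these changes were not tested. No paired analysis was possible because the groups share no replicate number. With 4 or 5 mice a group and counts of Tdo2 down to 67, the number of mice limits the precision, and the intervals of treatment differences given in the report are wide, so that modest changes cannot be told from none.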
